A study of Mus musculus with 2 samples.

Results

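The chemokine ligands other than Cxcl12 are all genes of the deposited gene list whose symbol begins with Ccl, Cxcl, Cx3cl or Xcl and a number, with Cxcl12 left out. They are 43 entries under 37 symbols of 27999 genes, and the rule uses names only, not values. In the cells of the study 23 entries reached 20 unique molecular identifiers (UMIs, each a counted RNA molecule), 5 had 1 to 19 UMIs and 15 had none. RNA of single bone marrow niche cells from C57Bl/6JCrl mice was counted in droplets, with 2 libraries in all and 1 per group. The group LepR_tdT came from tdTomato-positive bone marrow cells and the group EC from bone marrow endothelial cells, and mice of both carried the genotype LepR-Cre;LSL-tdTomato and were 3 to 4 months old. In this genotype the leptin receptor promoter drives Cre, so tdTomato marks cells that express the receptor or descend from such cells. The protocol describes tamoxifen by gavage for one range of sample numbers, and for another an intravenous VE-Cadherin antibody, release of the marrow with collagenase, dispase and DNase, and stains for CD45, Ter119 and LepR. The ranges overlap and the libraries carry no such number, so which of these steps applies to each library is uncertain. The number of mice behind each library is not given in the sources used here.

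Chemokines are small secreted proteins that guide leukocytes through G protein-coupled receptors. Their names follow the spacing of the first cysteines, and a few, such as CX3CL1 and CXCL16, are also made as membrane-bound forms. Marrow stromal cells are best known for Cxcl12, which keeps blood stem cells in place, while CCL2 releases monocytes from the marrow and the CXCR2 ligands mobilise neutrophils. Several are immediate targets of NF-kappa-B, and Cxcl9 and Cxcl10 are classical interferon targets.

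The promoters of the CXCR2 and CXCR3 ligands Cxcl1, Cxcl2, Cxcl9 and Cxcl10 are shown because the levels of these ligands are compared between cell states below. Sequences are from RefSeq on GRCm38.p6 and read 5′ to 3′ on the strand of the gene, ending 31 bases before the start site. They begin 140 bases before it, or 220 for Cxcl10. Capitals mark matches on either strand to a pattern of the NF-kappa-B type, GGGNN followed directly by TTNCC, or of the interferon type, GAAANN followed directly by GAAA.
Cxcl1: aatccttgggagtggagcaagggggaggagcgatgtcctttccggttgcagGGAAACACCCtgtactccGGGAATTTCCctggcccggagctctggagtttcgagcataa
Cxcl2: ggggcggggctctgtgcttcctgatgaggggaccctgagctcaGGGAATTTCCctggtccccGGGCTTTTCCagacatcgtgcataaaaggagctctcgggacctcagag
Cxcl9: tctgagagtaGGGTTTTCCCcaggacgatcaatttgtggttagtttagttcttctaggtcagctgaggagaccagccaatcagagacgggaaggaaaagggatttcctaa
Cxcl10: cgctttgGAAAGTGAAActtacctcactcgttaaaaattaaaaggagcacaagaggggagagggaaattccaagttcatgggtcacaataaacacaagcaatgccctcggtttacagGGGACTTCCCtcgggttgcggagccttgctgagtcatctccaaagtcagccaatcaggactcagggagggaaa
The Cxcl1 stretch is chr5:90891105-90891214 on the plus strand. The Cxcl2 stretch is chr5:90903759-90903868 on the plus strand. The Cxcl9 stretch is chr5:92328110-92328219 on the minus strand. The Cxcl10 stretch is chr5:92348920-92349109 on the minus strand. The NF-kappa-B type letters were in the window from 250 bases before to 50 after the start in 5.48% of 27025 genes, and in 6 of the 15 chemokine ligands with at least 20 UMIs that the table held, namely Ccl19, Ccl9, Cxcl1, Cxcl10, Cxcl2 and Cxcl9. The interferon type letters were in 3.99% of genes and in 3 of the 15, Ccl19, Cxcl10 and Cxcl14. A match describes letters and is not a shown binding site.

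The cells of the LepR_tdT library numbered 4250 with a median of 4347 UMIs, and those of the EC library 4536 with a median of 3084.5. Clusters were made without any chemokine ligand and named from marker genes. In the LepR_tdT library 2928 cells were stromal-like (68.9%), 265 osteolineage-like, 61 endothelial-like, 24 granulocyte-like and 17 pericyte-like. Another 264 cells, cluster 6, had 9 of 12 stromal markers raised, but other genes led them (Fndc1, Kit, Prg4 and Comp), and they stayed unnamed. In the EC library 3683 cells were endothelial-like (81.2%), of which 3436 were sinusoidal-like and 247 arterial-like, beside 82 erythroid-like and 43 granulocyte-like cells. Shallow cells led by mitochondrial genes, cluster 3 with 721 EC cells and cluster 4 with 636 LepR_tdT cells, stayed unnamed. Lepr stood at 665 CPM (its UMIs as parts of 1000000 UMIs of the class) in stromal-like cells of LepR_tdT and 16.9 CPM in endothelial-like cells of EC. The endothelial gene Cdh5 stood at 1.07 and 839 CPM, and tdTomato at 19.6 and 1.87 CPM. Markers of T and NK cells summed to 0.787 CPM in the stromal-like and 0.545 CPM in the endothelial-like class, and those of granulocytes to 77.7 and 183 CPM. The libraries shared 42 cell barcode sequences. With 1 library per group no test over samples exists, and group and library cannot be told apart. Intervals are 95% and cover counting error only.

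Of the 23 ligands with at least 20 UMIs, 11 were at least 2-fold higher in the LepR_tdT library, against 21.2% of all genes with 20 UMIs, and 4 (Ccl24, Ccl12, Ccl3 and Ccl4) in the EC library, against 17.9%. The median log2 ratio was 0.60 over the ligands and 0.08 over all genes. In all, the cells held 134597 UMIs of the ligands, of which 111013 were Cxcl14.

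Between the 2 labelled populations, stromal-like cells of LepR_tdT and endothelial-like cells of EC, 19 ligands had at least 20 UMIs. Of these, 11 were higher by 2-fold or more in the stromal-like class (21.5% of all genes were), 3 in the endothelial-like class (17.9%) and 5 in neither. The median log2 ratio was 2.97, beside 0.10 over all genes. Ligands as a whole made up 6766 CPM of stromal-like and 261 CPM of endothelial-like cells, or 1111 and 258 CPM without Cxcl14.

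**Figure D1:**
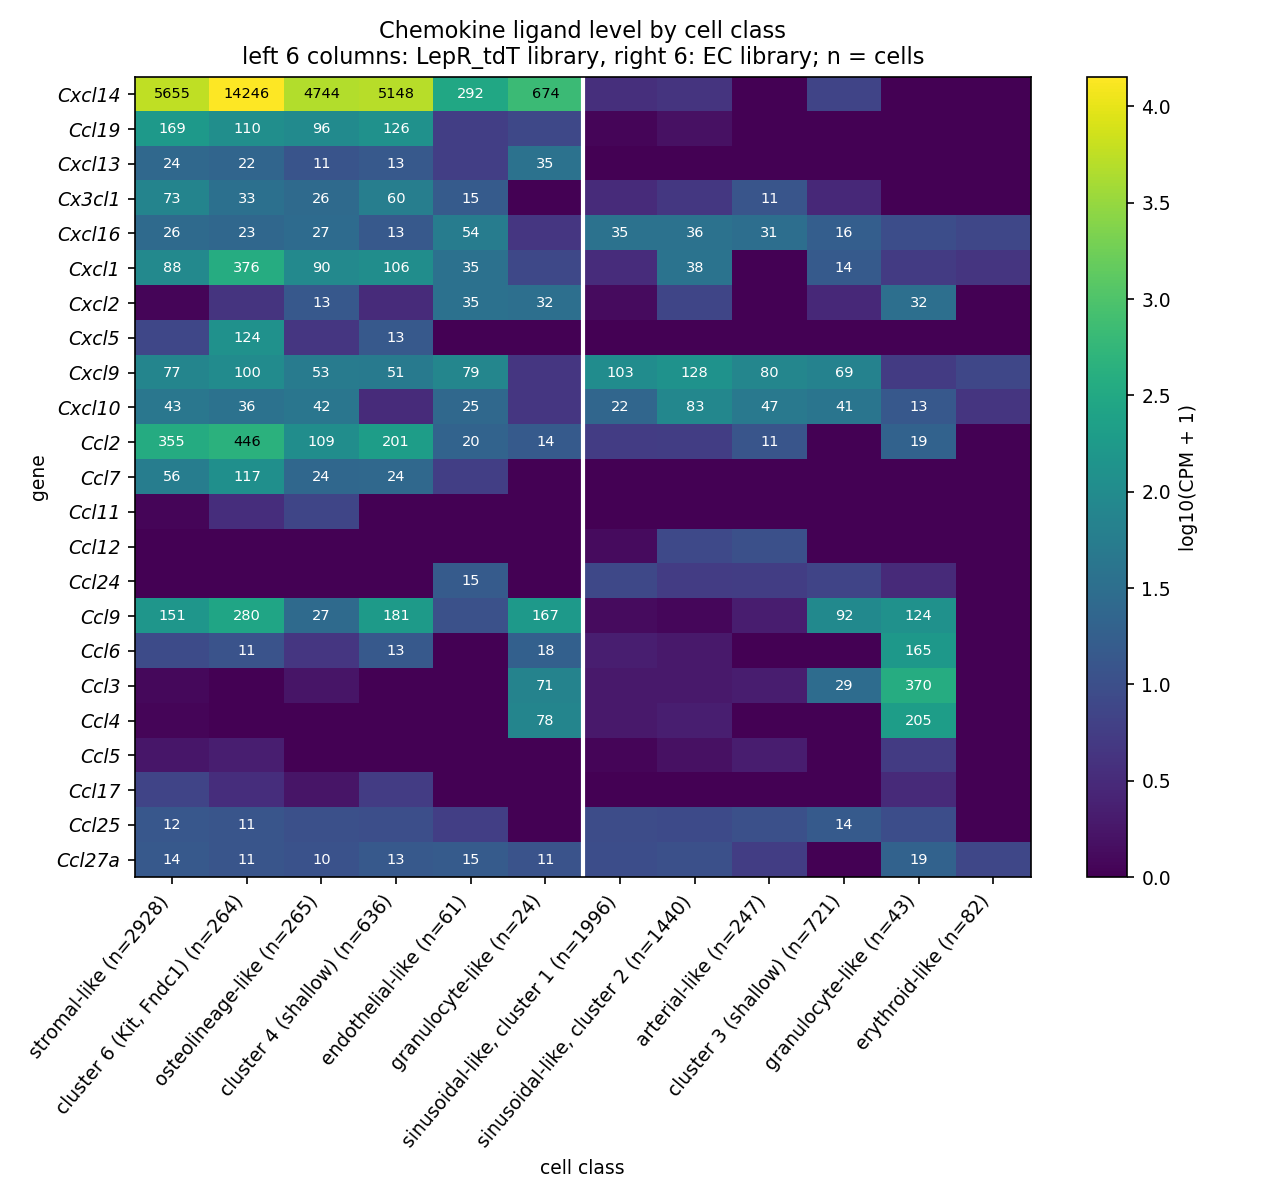
Level of the 23 ligands (rows) in 12 cell classes (columns, left 6 from LepR_tdT, right 6 from EC) as log10(CPM + 1), with CPM printed where it was 10 or more. Cxcl14, Ccl19, Ccl2 and Ccl9 fill the stromal columns, Cxcl9, Cxcl10 and Cxcl16 appear in stromal and endothelial columns, and Ccl4 passes 10 CPM only in the granulocyte-like columns.

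Cxcl14, a chemokine of skin, gut and stroma whose receptor is not settled, was the highest-count ligand. It reached 79027 UMIs in stromal-like cells (5655 CPM, 5616 to 5695) and 35 in endothelial-like cells (2.72 CPM, 1.90 to 3.79), a log2 ratio of 11.02 (10.54 to 11.54). A UMI was found in 99.7% of stromal-like cells, or 96.5% after thinning each cell to 1000 UMIs. In the same library 42.6% of the 61 endothelial-like cells also had a Cxcl14 UMI (23.3% thinned; median depth 3488 against 4627.5 UMIs), and Cxcl14 stood at 4691 CPM in barcodes of 1 to 50 UMIs outside the cell table. The erythroid-like cells of LepR_tdT had 922 CPM and its granulocyte-like cells 674 CPM, so Cxcl14 UMIs in these LepR_tdT classes are not read as expression. Its gene lies at chr13:56288643-56296551 on the minus strand (GRCm38). Osteolineage-like cells had 4744 CPM and cluster 6 had 14246 CPM.

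Homing ligands of lymphocytes were higher in stromal-like than in endothelial-like cells. Ccl19, the CCR7 ligand that draws T cells and dendritic cells, was counted 2362 times in the stromal-like class and 4 times in the endothelial-like class (169 against 0.311 CPM, log2 ratio 9.08, 7.73 to 10.96). It was seen in 44.9% of stromal-like cells (14.1% thinned), beside 1.64% of the endothelial-like cells of the same library (0% thinned). Ccl19 has another entry of the same symbol, which held no UMI, so its count is uncertain where copies share sequence. Cxcl13, the CXCR5 ligand that draws B cells, had 336 UMIs against 0 and so was at least 103-fold higher there, but the UMIs lay in 79 stromal-like cells (2.70%). The top 1% of stromal-like cells ranked by Cxcl13 held 80.4% of the Cxcl13 UMIs of the class. The top 1% ranked by Ccl19 held 11.3% of its Ccl19 UMIs. The other CCR7 ligands, the Ccl21a, Ccl21b and Ccl21c forms, had no UMI in cells of either library. Each of these symbols has 2 entries, so their lack of UMIs is likewise uncertain where copies share sequence.

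Monocyte attractants differed in direction. Ccl2, the main CCR2 ligand, was counted 4963 times in the stromal-like class and 65 times in the endothelial-like class (355 against 5.06 CPM, log2 ratio 6.13, 5.78 to 6.51). It was seen in 26.9% of stromal-like cells (13.2% thinned), beside 6.56% of the endothelial-like cells of LepR_tdT (1.67% thinned). Ccl7, whose gene at chr11:82045712-82047525 follows Ccl2 at chr11:82035571-82037453, had 782 UMIs against 0 and was at least 240-fold higher than in endothelial-like cells. The lower end of the interval for Ccl7 was 194-fold. Ccl12, another CCR2 ligand of that cluster, went the other way, with 0 UMIs against 51, at least 18.5-fold higher in endothelial-like cells. All 51 UMIs lay in 17 cells, 41 of them in the sinusoidal-like cluster 2 described below, without which too few were left for a call. Its 3.97 CPM in endothelial-like cells was below the 8.25 CPM of barcodes of 1 to 50 UMIs outside the EC cell table, taken here as free RNA. Ccl24, a CCR3 ligand that draws eosinophils, had 0 against 74 UMIs in 56 cells, at least 26.8-fold higher in endothelial-like cells, and its 3 UMIs in the LepR_tdT library were all in endothelial-like cells. Ccl11, also a CCR3 ligand, had 27 UMIs, all in LepR_tdT, of which 12 lay in 4 of the 17 pericyte-like cells. Ccl8 had 2 UMIs and Ccl26 none.

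Neutrophil attractants that bind CXCR2 did not move as a group. Cxcl1 was higher in stromal-like cells (1234 against 226 UMIs, 88.3 against 17.6 CPM, log2 ratio 2.33, 2.12 to 2.54). Cxcl5 had 93 UMIs against 0, a difference of at least 28.5-fold. Cxcl2 had 2 against 38 UMIs (log2 ratio -4.37, -7.47 to -2.42), so this ligand was higher in endothelial-like cells, in 20 of which it was seen. That call was lost without cluster 2, where 36 of the 38 UMIs lay, and when 5% of the UMIs of each class were taken to be free RNA and subtracted. The Cxcl1 log2 ratio was 5.42 without cluster 2. Cxcl3 had 4 UMIs in all and Cxcl15 had 1.

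The CXCR3 ligands, which draw activated T and NK cells, were shared by both populations. Cxcl9 stood at 77.1 CPM in stromal-like and 112 CPM in endothelial-like cells (log2 ratio -0.55, -0.66 to -0.43). Cxcl10 stood at 43.0 and 50.3 CPM (-0.23, -0.39 to -0.06). Without cluster 2 the Cxcl10 ratio was 0.78. Of 12 interferon genes 4 were higher by 2-fold or more in the stromal-like class (21.5% of all genes were) and 1 in the endothelial-like class (17.9%). Their median log2 ratio was 0.69, beside 0.10 over all genes, and their part in the levels of these ligands was not tested. The spread over cells differed: Cxcl10 had 601 UMIs in 75 stromal-like cells, 144 of them in 1 cell, and 646 UMIs in 225 endothelial-like cells. Cxcl9 was seen in 8.47% of stromal-like and 19.1% of endothelial-like cells, or 3.16% and 7.29% after thinning, beside 4.65% of the 43 granulocyte-like cells of EC (2.38% thinned), whose median depth was 9792 UMIs. Art3 overlaps Cxcl10 on the opposite strand, and Cxcl11 was not analysed here.

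The membrane-bound ligands differed from each other. Cx3cl1, the ligand of CX3CR1 on monocytes, was at 72.6 against 3.50 CPM (log2 ratio 4.37, 3.94 to 4.84). Cxcl16, the CXCR6 ligand, was at 26.4 against 35.3 CPM (-0.42, -0.62 to -0.22), below the 2-fold limit. Zmynd15 overlaps Cxcl16 on the opposite strand, and the strand of counting is not given in the sources used here.

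Ccl9, Ccl6, Ccl3 and Ccl4 were of mixed origin. Ccl9 was higher in stromal-like than in endothelial-like cells, with 2112 UMIs against 4 (151 against 0.311 CPM, log2 ratio 8.92, 7.56 to 10.80). Ccl6 was lower in count, with 111 against 13 (2.97, 2.14 to 3.93). The stromal-like Ccl6 level, 7.94 CPM, was below the 58.5 CPM of free RNA in LepR_tdT. Ccl9 was seen in 31.2% of stromal-like cells (11.0% thinned). In granulocyte-like cells of LepR_tdT Ccl9 stood at 167 CPM (47 UMIs in 10 cells), above its stromal-like level, and Ccl6 had 5 UMIs. Free RNA of LepR_tdT held Ccl9 at 166 CPM. Both were also present in granulocyte-like cells of EC, at 124 CPM for Ccl9 and 165 CPM for Ccl6. Ccl3 and Ccl4 lay in that class instead. Of 199 Ccl3 UMIs in EC cells 173 were in granulocyte-like cells, and of 109 Ccl4 UMIs 96. A single cell held 91 UMIs of each, along with 228 UMIs of basophil and mast cell markers and 2 of granulocyte markers. It also held 23 of the 58 Ccl9 and 35 of the 77 Ccl6 UMIs of that class, whose levels were 75.6 and 90.7 CPM without it. The cell with the next most Ccl3 UMIs, 29, held 61 UMIs of macrophage markers and 29 of granulocyte markers. The granulocyte-like cells of EC were thus mixed. Their markers of granulocytes summed to 120790 CPM, of basophils and mast cells to 4270, of macrophages to 2102 and of B cells to 1065 CPM. In endothelial-like cells of EC the same lists summed to 183, 5.84, 1669 and 3.19 CPM. The macrophage sum was thus near the endothelial-like one, and C1qa, C1qb and C1qc had no UMI in the granulocyte-like cells of EC. Without the top cell of each library the Ccl4 log2 ratio of the libraries moved from -2.55 to -0.44, inside the 2-fold limit, while Ccl3 was at -3.42. Ccl5 had 20 UMIs in all cells.

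Skin, thymic and mucosal ligands were low. Ccl17, a CCR4 ligand, had 84 UMIs against 0, a difference of at least 25.7-fold toward the stroma. Ccl25, the thymic CCR9 ligand, had 172 against 104 UMIs (log2 ratio 0.60, 0.25 to 0.97) and Ccl27a, a CCR10 ligand, 191 against 111 (0.66, 0.32 to 1.01), neither past 2-fold. Ccl25 overlaps Elavl1 and Ccl27a overlaps Il11ra1 on the opposite strand, and Ccl27a has near-identical copies, so these counts are uncertain. Opposite-strand genes also overlap Ccl2, Ccl6 and Ccl19. Ccl20, Ccl1, Xcl1, Ccl27b and Cxcl17 had no UMI in the cells, Ccl22 had 1 and Ccl28 had 3.

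**Figure D2:**
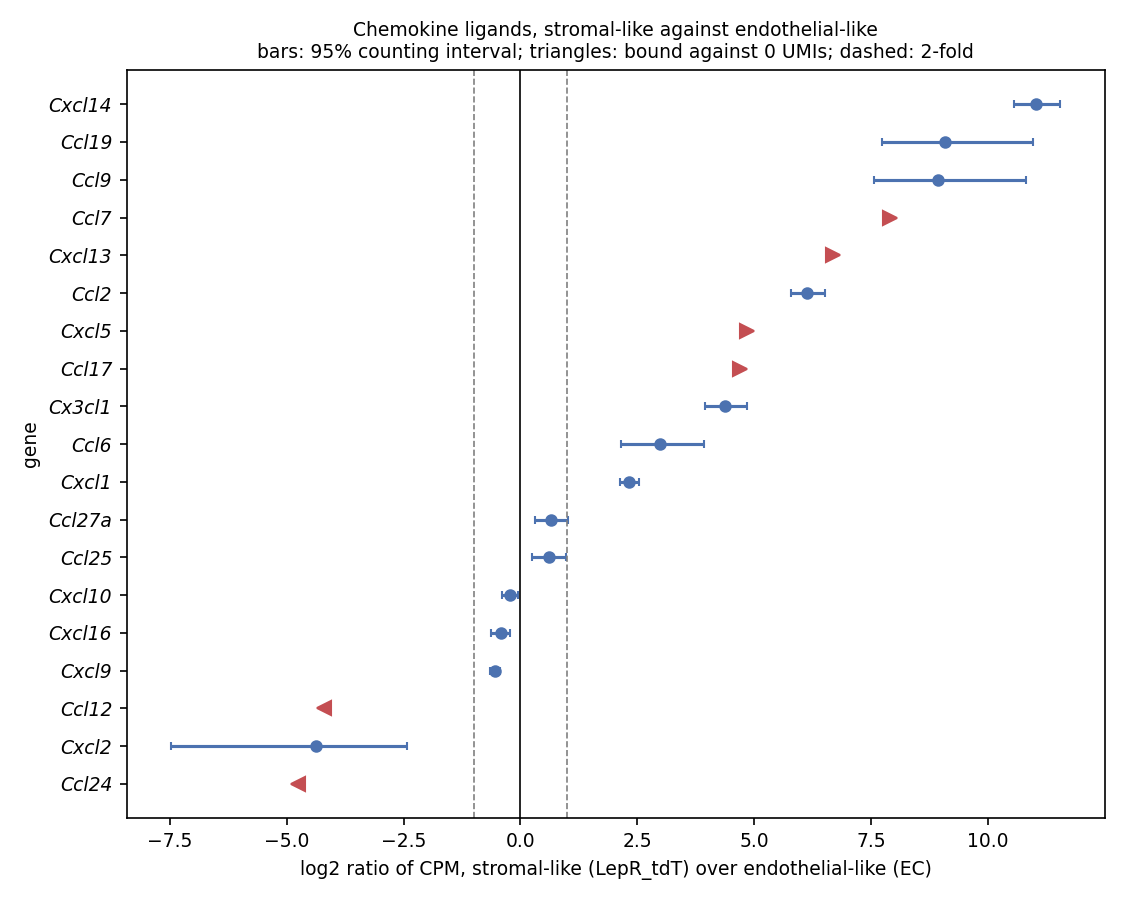
Log2 ratio of CPM of stromal-like cells over endothelial-like cells for the 19 ligands with at least 20 UMIs. Points carry 95% counting intervals, triangles are ratios with a class at 0 UMIs set to the floor of 3 UMIs, and dashed lines mark 2-fold. Beyond the line on the right lie 11 ligands and beyond that on the left 3, with Cxcl9, Cxcl10, Cxcl16, Ccl25 and Ccl27a between.

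**Figure D3:**
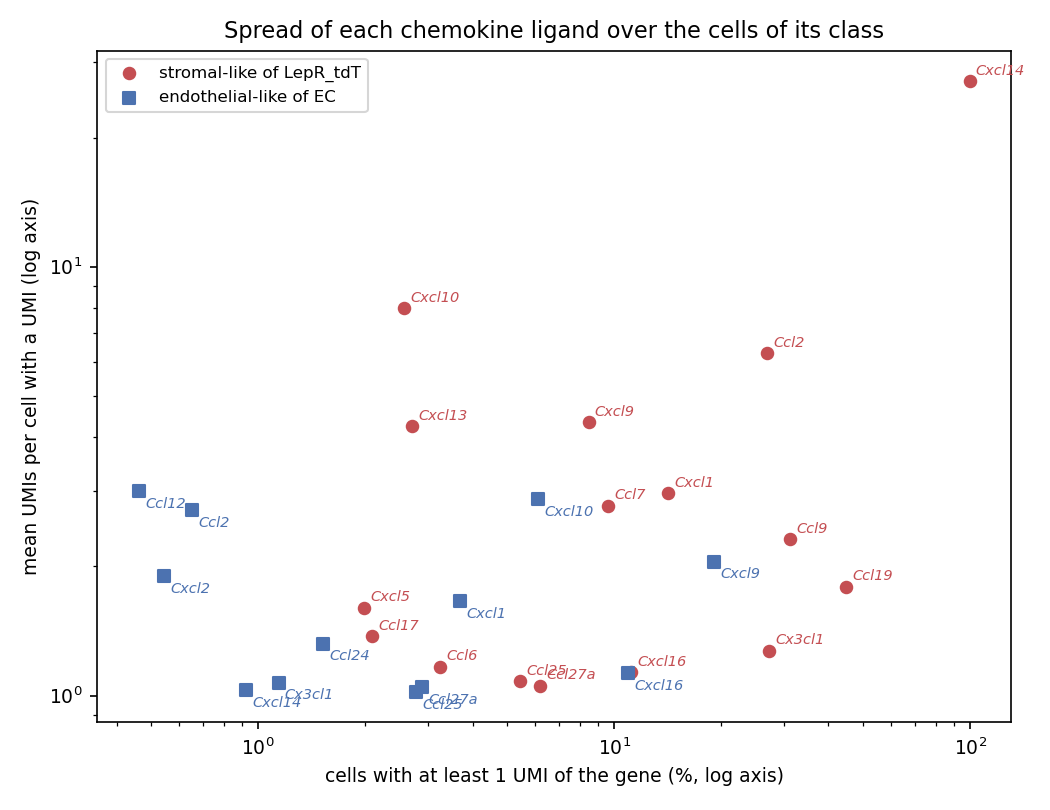
Share of cells with a UMI (log axis) against mean UMIs in those cells (log axis), for ligands with at least 20 UMIs in stromal-like (circles) or endothelial-like cells (squares). Cxcl14 is in nearly every stromal-like cell, while Cxcl10 and Cxcl13 are in 2.56% and 2.70% of them at several UMIs per cell.

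Some ligands were detected together in the same stromal-like cells. After thinning, 11.9% of cells with a Ccl2 UMI (8.86 to 15.6) had a Ccl7 UMI, against 1.94% without (1.44 to 2.55). Of cells with a Cxcl9 UMI 20.7% (12.9 to 30.4) had Cxcl10, against 0.602% without (0.351 to 0.963). In sinusoidal-like cells the figures for that pair were 5.88% (3.33 to 9.52) and 2.49% (1.97 to 3.10). Ccl19 was found about as often with Ccl2 (15.8%, 12.3 to 19.8) as without it (13.8%, 12.5 to 15.3). These counts compare cells of 1 library.

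Within the EC library, 12 ligands were measured between arterial-like and sinusoidal-like cells. Cx3cl1, Ccl2 and Ccl12 were at least 2-fold higher in arterial-like cells (8.82% of all genes were) and Cxcl1 in sinusoidal-like cells (7.06%). The median log2 ratio was -0.05, beside 0.12 over all genes. Cx3cl1 had 10 UMIs in 7 arterial-like cells and 35 in sinusoidal-like cells (11.5 against 2.92 CPM, log2 ratio 1.98, 0.80 to 3.02). The 10 Ccl2 and the 8 Ccl12 UMIs of arterial-like cells lay in 1 cell each, and neither was called without it. Cxcl1 had 0 against 226 UMIs, at least 5.47-fold higher in sinusoidal-like cells, and was no longer called without the sinusoidal-like cluster 2 described next. Without that cluster the Cxcl10 log2 ratio went from -0.10 to 1.09. Of 12 interferon genes 6 were at least 2-fold higher in arterial-like cells and none in sinusoidal-like cells (median 1.04), while Cxcl9 stood at 80.4 against 115 CPM. Without the top cell of each class the Cxcl9 log2 ratio went from -0.51 to -1.09, past 2-fold toward sinusoidal-like cells.

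The sinusoidal-like cells fell into cluster 1 (1996 cells), led by Sema3a and Ackr1, and cluster 2 (1440 cells), led by Apold1, Klf4 and Atf3. Of 12 ligands 4 were at least 2-fold higher in cluster 2 (2.04% of all genes were) and none in cluster 1 (0.986%), with a median log2 ratio of 0.30 beside -0.06. Cxcl1 stood at 37.7 against 2.35 CPM (log2 ratio 4.01, 3.25 to 4.87). Cxcl10 stood at 83.0 against 22.1 CPM (1.91, 1.64 to 2.19). Cxcl1 was seen in 8.54% against 0.651% of cells (3.16% against 0.153% thinned), at median depths of 3768 and 3123 UMIs. Cxcl2 had 36 against 2 UMIs and Ccl12 41 against 2. Cxcl9, with 128 against 103 CPM, stayed under 2-fold. Of 12 measured immediate early and dissociation genes all 12 were higher in cluster 2 (median 2.43), with Fos, Junb, Jun and Hspa1a the most counted, and 8 of 12 NF-kappa-B feedback genes (median 1.18), with Nfkbia at 680 against 280 CPM. None of 12 interferon genes was (median -0.04), with Irf1 at 115 against 59.5 CPM. Genes of these lists took part in the clustering, so their levels describe the clusters, and their part in the ligand levels was not tested.

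At a finer resolution 352 of the stromal-like cells formed finer cluster 6 (not the cluster 6 named above), with Gadd45b, Fosb and Egr2 among their leading genes. Against the other stromal-like cells, 2 of 16 ligands were higher (1.45% of all genes) and 3 lower (4.06%). Ccl2, itself among the leading genes that describe it, stood at 820 against 290 CPM (2.83-fold, 2.66 to 3.01) and was seen in 46.0% of these cells. Cxcl1 stood at 250 against 65.6 CPM (3.81-fold, 3.38 to 4.29). Cxcl9 (log2 ratio -1.04), Cxcl10 (-1.06) and Cxcl13 (-3.22) were lower. The immediate early list had 9 of 12 members higher (median 2.09) and the NF-kappa-B list 6 of 12 (median 0.96). Irf1, an interferon gene, stood at 279 against 161 CPM, and 2 of the 12 interferon genes were lower.

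**Figure D4:**
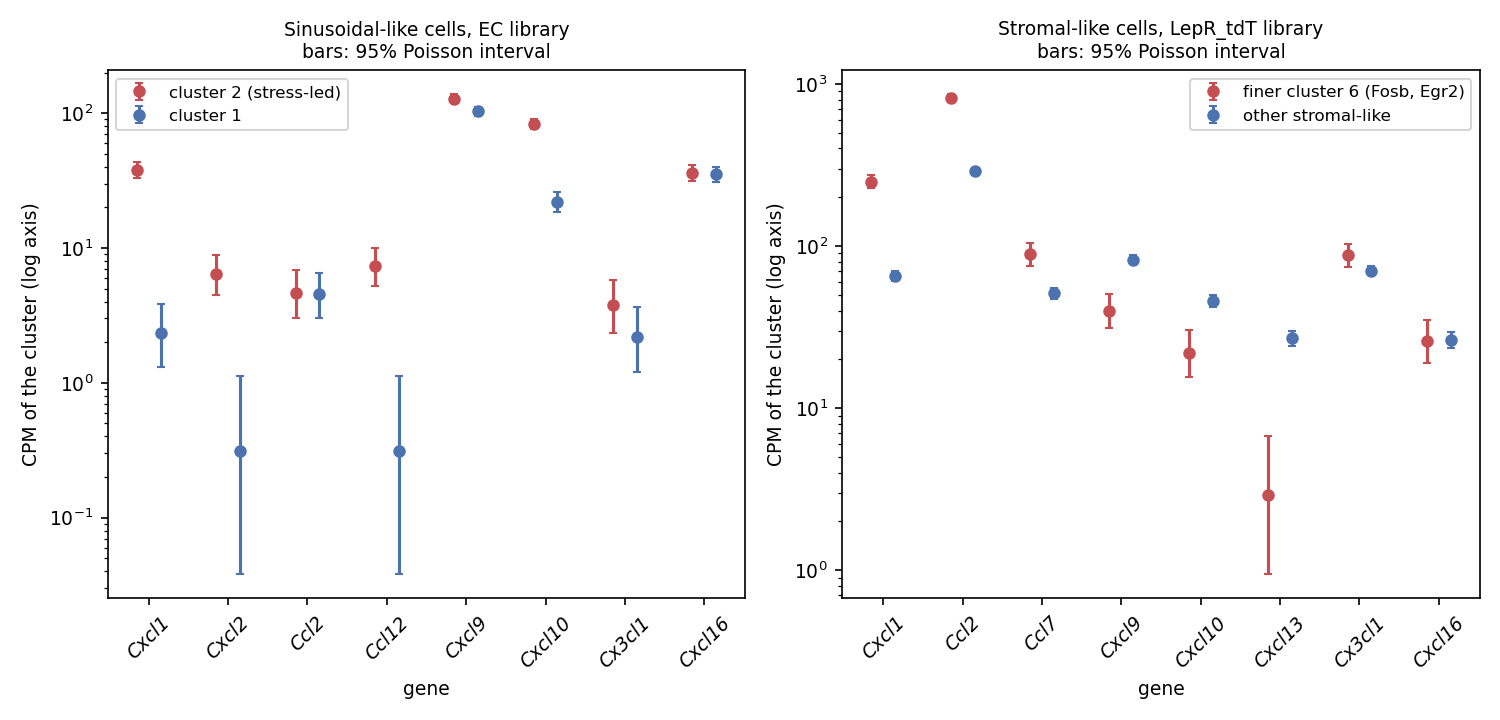
Ligand levels in CPM (log axis) in sinusoidal-like cluster 2 (stress-led) against cluster 1 (left) and in finer cluster 6 against the other stromal-like cells (right), with 95% Poisson intervals. Cxcl1 is higher in the first-named cells of both panels, Cxcl10 is higher in the left and lower in the right panel, and Ccl2 differs by 2-fold in the right panel alone.

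Between finer cluster 3 (1137 cells, led by Gpr50, Chl1 and Rspo2) and finer cluster 2 (1349 cells, led by Kcne4 and Cldn11), 2 of 16 ligands were higher in each direction (0.905% and 2.08% of all genes). Cxcl13 stood at 49.3 against 4.25 CPM (log2 ratio 3.54, 2.96 to 4.16), with 271 of the 336 stromal-like UMIs in finer cluster 3. Ccl17 was also higher there (46 against 23 UMIs), and Cxcl1 (22.6 against 96.7 CPM) and Cxcl5 (21 against 57 UMIs) were lower. Immediate early genes were lower as well, 5 of 12 by at least 2-fold, and their part in the Cxcl1 level was not tested.

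In cluster 6, the unnamed cells with Kit and Fndc1, of 16 ligands 4 were at least 2-fold higher than in stromal-like cells (3.78% of all genes) and 2 lower (6.58%). Cxcl5 stood at 124 against 6.65 CPM (log2 ratio 4.22, 3.86 to 4.60) and in 34.1% against 1.98% of cells, and it led the cluster by fold although it took no part in clustering. Cxcl1 stood at 376 against 88.3 CPM (2.09, 1.95 to 2.23), Cxcl14 was 2.52-fold higher (2.48 to 2.56) and Ccl7 2.09-fold (1.77 to 2.45). The Cxcl1 level was not particular to cluster 6, which held 599 Cxcl1 UMIs among 1592363. The 17 pericyte-like cells of LepR_tdT held 26 among 70185. Cx3cl1 was lower (32.7 against 72.6 CPM), and Ccl17 had 4 UMIs. Immediate early genes were also raised, 7 of 12 with a median of 1.10, and their part was not tested.

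Osteolineage-like cells carried fewer ligands than stromal-like cells. Of 17, 1 was at least 2-fold higher (5.65% of all genes) and 7 lower (8.52%), with a median log2 ratio of -0.81 beside -0.09. Ccl9 (26.6 against 151 CPM, -2.51) and Ccl2 (109 against 355 CPM, -1.70) were lower, and passed 2-fold under every alternative run, Ccl9 at -1.11 with classes from markers in each cell. Another 5 were lower, but not under every alternative. Cx3cl1 went from -1.49 to -0.70 and Ccl17, with 1 osteolineage-like UMI, from -3.06 to -0.82 when classes were taken from markers in each cell. Ccl7 (-1.24) was at -0.62 and Ccl6 (-1.14, -2.79 to 0.12) at -0.69 by the mean of single-cell CPM. Cxcl13 (-1.16) was at -0.94 without the 5% of cells with the most UMIs. Cxcl1 was at 89.9 against 88.3 CPM. Cxcl10 was at 41.7 against 43.0 CPM, but 52 of its 58 osteolineage-like UMIs lay in 1 cell, and without the top cell of each class its log2 ratio was -2.92 and that of Cxcl9 -1.69. The 1 higher ligand was Cxcl2, whose 18 UMIs lay in 1 cell.

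The 54 cells of finer cluster 14 among endothelial-like cells of EC, led by H2-Aa, Cd74 and H2-Ab1 of antigen presentation and looked at because Cxcl9 was among their leading genes, held 131 Cxcl9 UMIs (705 against 104 CPM in the other endothelial-like cells, log2 ratio 2.76, 2.49 to 3.02) in 22 cells. Cxcl10 was at 37.7 against 50.5 CPM. Of 12 ligands 3 were at least 2-fold higher (7.63% of all genes) and none lower (6.7%), the other two Cxcl2 with 4 UMIs and Cxcl14 with 1.

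Of 23 chemokine receptors 7 had at least 20 UMIs over stromal-like and endothelial-like cells. Of these 2 were at least 2-fold higher in the stromal-like class (21.5% of all genes were) and 4 in the endothelial-like class (17.9%). The median log2 ratio of these receptors was -1.56, beside 0.10 over all genes. Most UMIs were of atypical receptors, which bind chemokines without G protein signalling. Ackr1 reached 1203 CPM in the endothelial-like class against 1.14 CPM in the stromal-like class. Ackr4, which removes CCL19, CCL21 and CCL25, reached 787 CPM in the stromal-like class against 0.233 CPM. Ackr2 had 97 UMIs in endothelial-like cells and none in stromal-like cells, while Ccr9 had 80 in stromal-like and none in endothelial-like cells. Ccrl2 had 24 UMIs in stromal-like cells, 40 in arterial-like cells (46.0 CPM) and 25 in sinusoidal-like cells of EC (2.09 CPM). The platelet chemokines Pf4 and Ppbp, whose symbols fall outside the name rule, were at 14.2 and 15.7 CPM in stromal-like and 37.3 and 2.02 CPM in endothelial-like cells.

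**Figure D5:**
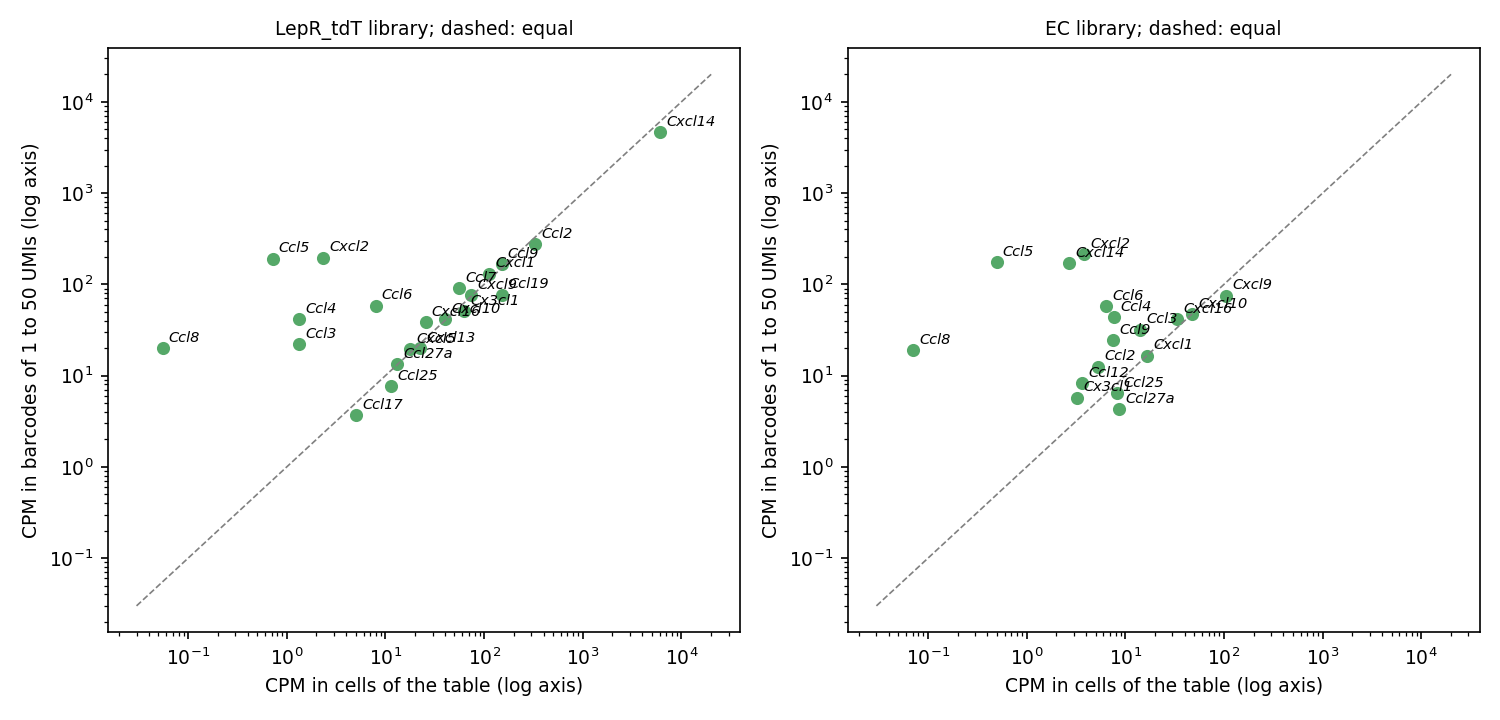
CPM of each ligand in the cells (x, log axis) against barcodes of 1 to 50 UMIs outside the cell table (y, log axis), by library, for ligands with at least 10 UMIs there. Ligands with no UMI in the cells of a library are not drawn, namely Xcl1 in both, Ccl12 in LepR_tdT and Cxcl13 in EC. Cxcl9, Cxcl10 and Cxcl1 lie near the line of equality in both libraries, while Ccl5, Ccl8 and Cxcl2 lie far above it in both.

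In barcodes outside the cell table, taken here as free RNA, Ccl2 stood at 276 CPM in LepR_tdT, beside 327 CPM in the cells, and at 12.6 CPM in EC, beside 5.24 CPM. The endothelial-like class of EC had less Cxcl14 (2.72 CPM) and less Ccl2 (5.06 CPM) than free RNA of that library (172 and 12.6 CPM). When 5% of the UMIs of each class were taken to be free RNA, the log2 ratio of stromal-like over endothelial-like cells was 6.27 for Ccl2, and Ccl6 and Ccl12 stayed past 2-fold in the directions given above. Cxcl2 had 532 UMIs outside the table in LepR_tdT and 593 in EC, beside 42 and 54 in cells. Granulocyte markers stood at 6949 and 9015 CPM in those barcodes, and their part in the Cxcl2 level was not tested.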

How the data were processed

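The deposited matrix holds raw UMI counts of both libraries, and the cell table gives the library, UMI count and gene count of each cell, per the file headers; these matched the matrix for all cells. Of the cell table, 1 column was not used: a text label that names LepR_tdT for the cells of both libraries. The library of a cell was taken from another column of the authors' table. Cell Ranger 2.1.1, Seurat 2.3.4 and mm10 are named in the submitters' processing notes, with no roles; the strand of counting is not given in the sources used here. The rule for members uses names only, but the gene family and the lists were chosen with earlier results of these data known.

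Cells of both libraries were clustered in Python 3.11.15 with scanpy 1.11.5 and igraph 0.11.9: UMIs scaled to 10000 per cell, log, the 2000 most variable genes without those seen in fewer than 10 cells, all chemokine ligands, mitochondrial genes and tdTomato (1565 left), 30 components, 15 neighbours, Leiden resolution 0.5 (finer: 1), best of 20 seeds. A name needed 3 markers at 1.5-fold. Doublets were not removed: Scrublet called 0 EC and 1 LepR_tdT cells. UMIs were summed by class; a ligand was called at 2-fold with 20 UMIs over both classes. Intervals are exact Poisson (levels), conditional binomial (ratios) and Clopper-Pearson (shares), at 95%. A class at 0 UMIs was set to a floor of 3 UMIs over the class. Every ligand with at least 20 UMIs is named. Of other lists, up to 4 with the most UMIs are named, and of the receptors also Ccr9. Comparisons between clusters other than the stromal, endothelial, arterial and osteolineage classes were added after the clusters were seen. The ratio and Poisson intervals were tested on simulated Poisson counts, and the clustering and other steps were not tested on simulated data. Gene positions are from GENCODE M21, which held 36 of the 43 entries.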

Additional observations from a re-analysis of the deposited data

Results flagged for a closer look

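Barcodes of 1 to 50 UMIs outside the cell table, which enter no comparison, held more than 3 UMIs of some ligands, at a level at least 2-fold above that in the cells of the same library. Xcl1 had 6.99 CPM (19 UMIs) in LepR_tdT, against no UMI in its cells and 4.31 CPM (12 UMIs) in EC, against no UMI in its cells. Ccl19 had 1.79 CPM (5 UMIs) in EC, against 0.283 CPM (4 UMIs) in its cells. Ccl21a had 2.21 CPM (6 UMIs) in LepR_tdT, against no UMI in its cells and 2.51 CPM (7 UMIs) in EC, against no UMI in its cells. Cxcl3 had 1.84 CPM (5 UMIs) in LepR_tdT, against 0.165 CPM (3 UMIs) in its cells. Cxcl2 had 196 CPM (532 UMIs) in LepR_tdT, against 2.32 CPM (42 UMIs) in its cells and 213 CPM (593 UMIs) in EC, against 3.83 CPM (54 UMIs) in its cells. Cxcl13 had 3.59 CPM (10 UMIs) in EC, against no UMI in its cells. Ccl22 had 1.47 CPM (4 UMIs) in LepR_tdT, against no UMI in its cells and 1.79 CPM (5 UMIs) in EC, against 0.0709 CPM (1 UMI) in its cells. Ccl17 had 1.79 CPM (5 UMIs) in EC, against 0.0709 CPM (1 UMI) in its cells. Ccl2 had 12.6 CPM (35 UMIs) in EC, against 5.24 CPM (74 UMIs) in its cells. Ccl7 had 1.44 CPM (4 UMIs) in EC, against no UMI in its cells. Ccl12 had 6.99 CPM (19 UMIs) in LepR_tdT, against no UMI in its cells and 8.25 CPM (23 UMIs) in EC, against 3.61 CPM (51 UMIs) in its cells. Ccl8 had 19.9 CPM (54 UMIs) in LepR_tdT, against 0.0551 CPM (1 UMI) in its cells and 19 CPM (53 UMIs) in EC, against 0.0709 CPM (1 UMI) in its cells. Ccl5 had 191 CPM (520 UMIs) in LepR_tdT, against 0.717 CPM (13 UMIs) in its cells and 176 CPM (491 UMIs) in EC, against 0.496 CPM (7 UMIs) in its cells. Ccl9 had 24.4 CPM (68 UMIs) in EC, against 7.58 CPM (107 UMIs) in its cells. Ccl6 had 58.5 CPM (159 UMIs) in LepR_tdT, against 7.94 CPM (144 UMIs) in its cells and 57.8 CPM (161 UMIs) in EC, against 6.38 CPM (90 UMIs) in its cells. Ccl3 had 22.1 CPM (60 UMIs) in LepR_tdT, against 1.32 CPM (24 UMIs) in its cells and 31.9 CPM (89 UMIs) in EC, against 14.1 CPM (199 UMIs) in its cells. Ccl4 had 41.6 CPM (113 UMIs) in LepR_tdT, against 1.32 CPM (24 UMIs) in its cells and 44.1 CPM (123 UMIs) in EC, against 7.72 CPM (109 UMIs) in its cells. Cxcl14 had 172 CPM (479 UMIs) in EC, against 2.69 CPM (38 UMIs) in its cells. The barcodes also held T and NK cell markers, at 205 CPM in LepR_tdT and 218 CPM in EC, against 8.54 and 16.5 CPM in the cells, and granulocyte markers at 6949 and 9015 CPM, against 1477 and 4191 CPM. Their part in these ligand values was not tested.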

How the results depend on the processing

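No ratio of at least 2-fold changed sign under the alternatives run; ratios under 2-fold did, as given above for Cxcl10. Of the single-ligand ratios under an alternative, 648 stayed within the counting interval of the main value and 81 moved. Those that stayed include all ratios under the other UMI minimums, since that setting selects ligands and cannot move a ratio. They also include the ratios of osteolineage-like over stromal-like cells without the stress-led cluster, which holds no cell of these classes. With classes from markers in each cell, the osteolineage-like Cxcl1 ratio went from 0.03 to -1.05 and that of Cxcl10 from -0.04 to -5.88. The count of ligands higher in endothelial-like than in stromal-like cells was 3, and 5 at a minimum of 10 UMIs and 1 without the stress-led cluster. The count higher in sinusoidal-like than in arterial-like cells was 1, and 2 with scaling by trimmed means, with the mean of single-cell CPM, without the 5% of cells with the most UMIs and with classes from markers in each cell, 0 at resolution 1 and without the stress-led cluster, and 4 without the top cell of each gene; the count higher in arterial-like cells was then 1 in place of 3. Trimmed-mean scaling shifted all genes by 0.20 there. The count higher in osteolineage-like cells was 1, and 2 at a minimum of 10 UMIs and 0 at a minimum of 50, at resolution 1 and without the top cell. Thinned to 1000 UMIs, the share of cells with Cxcl14 was 96.5% and with Cxcl9 7.29%, against 99.7% and 19.1%. Stromal-like cells were 43.6% of LepR_tdT at resolution 1 and 87.3% with markers in each cell, against 68.9%, and endothelial-like cells 91.6% with markers in each cell, against 81.2%. Beyond the cells or genes a setting itself removes, the cause was not tested. Removing Scrublet doublets was not run, since the caller marked 0 EC and 1 LepR_tdT cells. The settings without a top cell, without the stress-led cluster and without shared barcodes were chosen after seeing the data. No paired analysis was possible because each group has 1 library, and for the same reason no replicate could be left out.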
